A study of Danio rerio with 4 samples.

Results

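Zebrafish mutants of mst1, the gene for macrophage stimulating protein (Msp), were followed from 3 to 6 days post fertilization (dpf) through the mutant channel of 4 two-colour Agilent arrays. The 2 mutant RNA pools, out of 4 pools in the study, filled 4 of the 8 array channels: Cy5 on 1 array and Cy3 on the dye-swapped array of each stage. Mutant and wild-type embryos were both of the WIK strain, came from mutant and wild-type crosses, received no treatment and grew in E3 medium at 28 °C. Each pool held RNA of 30 whole embryos. Whether a dye swap reused the same RNA is not stated. That each genotype and stage had 1 pool is therefore an assumption, kept throughout. The labels give neither the allele nor the hour of collection, and they do not say whether the larvae were fed. Wild-type larvae of 3 and 6 dpf shared the arrays. They are used to show where the mutant differed, and as the second sample of each stage in a test of stage over both genotypes.

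Msp is a secreted relative of hepatocyte growth factor made mainly by the liver. Serine proteases activate it, and it signals through the receptor tyrosine kinase Ron on epithelial cells and macrophages. Between these stages a zebrafish larva exhausts much of its yolk, its gut, liver and exocrine pancreas become functional, its cones mature, and proliferation of the embryonic tissues slows.

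Fold differences below are log2 signals at 6 dpf minus those at 3 dpf, taken within a dye and averaged, and ± is the SD of the 2 dye pairs. If the dye swaps reused the same RNA, as assumed, this SD measures labelling and hybridisation only. For a gene list ± is the SD of the medians in the 2 dye pairs, and says nothing of how the median moves with the processing. With 1 mutant pool per stage the mutant alone allows no test. A gene is called higher or lower by a size rule: a mean log2 difference of at least 1, at least 0.5 in each dye pair with the same sign, and a probe that both arrays of the brighter pool show well above background. The words rose and fell are kept for limma on all 4 pools with stage and genotype as terms, where wild type serves as the second sample of a stage, an adjusted p under 0.05 (Benjamini-Hochberg) and a log2 difference of at least 1 are required, and 1 residual degree of freedom remains. Each array held 1 stage, so array and stage cannot be told apart, and pools of a stage shared their arrays. Because whole embryos were measured, more cells of a type and more RNA per cell cannot be told apart either.

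All arrays lay on 1 slide. Median spot signals were 146.5 to 154 in green over a background of 47.5 to 49, and 167 to 187 in red over 87 to 87.5. The number of arrays limits the precision. Across 18877 genes the 2 dye pairs of mutant differences correlated at 0.926, and the median SD between pairs was 0.10.

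The mutated gene was measured first. Log2 signal of mst1 in the mutant was 6.35 and 6.74 on the Cy5 and Cy3 arrays at 3 dpf and 7.04 and 6.98 at 6 dpf. The 6 dpf values lay above the 3 dpf values, by 0.47 ± 0.32, which did not pass the size rule. In wild type the same probe stood at 7.20 at 3 dpf and 8.14 at 6 dpf, so the mutant pools were the dimmer ones at both stages and the difference between stages was smaller by 0.47 ± 0.22. Where the probe lies relative to the mutation is not stated, so its signal checks the labels only in part. Of 16 measured genes for MSP and HGF ligands, receptors and proteases, 2 were higher in the mutant and 0 lower. These were plg, the liver-made precursor of plasmin (2.09 ± 0.07), and the transmembrane protease gene tmprss13a, which only just passed. They made up 12.5% of the list, beside 4.86% higher over all genes. The receptor gene met (-0.04 ± 0.07) and hgfa (-0.27 ± 0.39) did not pass, and no measured member was named as the Ron gene.

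Calls in the mutant lay all or nearly all on the higher side at 6 dpf for exocrine pancreas (24 higher and 0 lower), liver plasma proteins (23 and 0), glucocorticoid and gluconeogenesis genes (18 and 0), photoreceptors (18 and 1), enterocytes (16 and 0) and the circadian clock (14 and 0). They lay on the lower side for DNA replication and cell division (0 and 51), cartilage and bone matrix (0 and 21), chaperones (2 and 14), pigment cells (1 and 9) and embryonic globins (0 and 7). By the size rule a gene well above background at only 1 mutant stage could be called only toward that stage. Of 18877 genes, 917 were higher at 6 dpf (4.86%) and 883 lower (4.68%), and 185 and 74 of these differed at least 4-fold. A gene symbol, as opposed to a clone or locus name, was known for 624 of the higher and 690 of the lower genes. Without normalization between arrays, with each channel only centred on its median, 29.4% of the calls were on the higher side rather than 50.9%, so the balance between the directions rests on the scaling. Agilent's processed signals gave 1889 genes higher and 1979 lower. Over both genotypes limma found that 934 genes rose (4.95%) and 1011 fell (5.36%). The adjusted p alone was under 0.05 for 11576 of the 18877 genes, and the fit holds the same mutant pools, so it is no independent check of the mutant calls. Where higher genes had further detected probes, all of them had the same sign for 485 of 502 genes, and for lower genes this was so for 517 of 539.

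Wild-type larvae followed the same course. By the size rule 1062 genes were higher in wild type (5.63%) and 1158 lower (6.13%). Shared higher genes numbered 781, which is 85.2% of the mutant calls and 73.5% of the wild-type calls. Shared lower genes numbered 839, or 95.0% and 72.5%. Of the mutant calls, 913 of 917 and 883 of 883 had the same sign in wild type, and 0 were called in the opposite direction. Taken over genes, which do not count as replicates, the differences of mutant and wild type correlated at 0.957. Both genotypes of a stage shared their arrays, so an effect of an array on both channels enters both differences. Its part in the overlap, the shared signs and the correlation was not tested. The slope of the mutant on the wild-type difference along the principal axis was 0.908 ± 0.0093 (SD of the 2 dye pairs), below 1 in both pairs. Among shared lower genes the median was -1.35 in the mutant and -1.51 in wild type, with 143 of 839 larger in the mutant. Among shared higher genes the medians were 1.48 and 1.55, with 285 of 781 larger in the mutant.

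**Figure D1:**
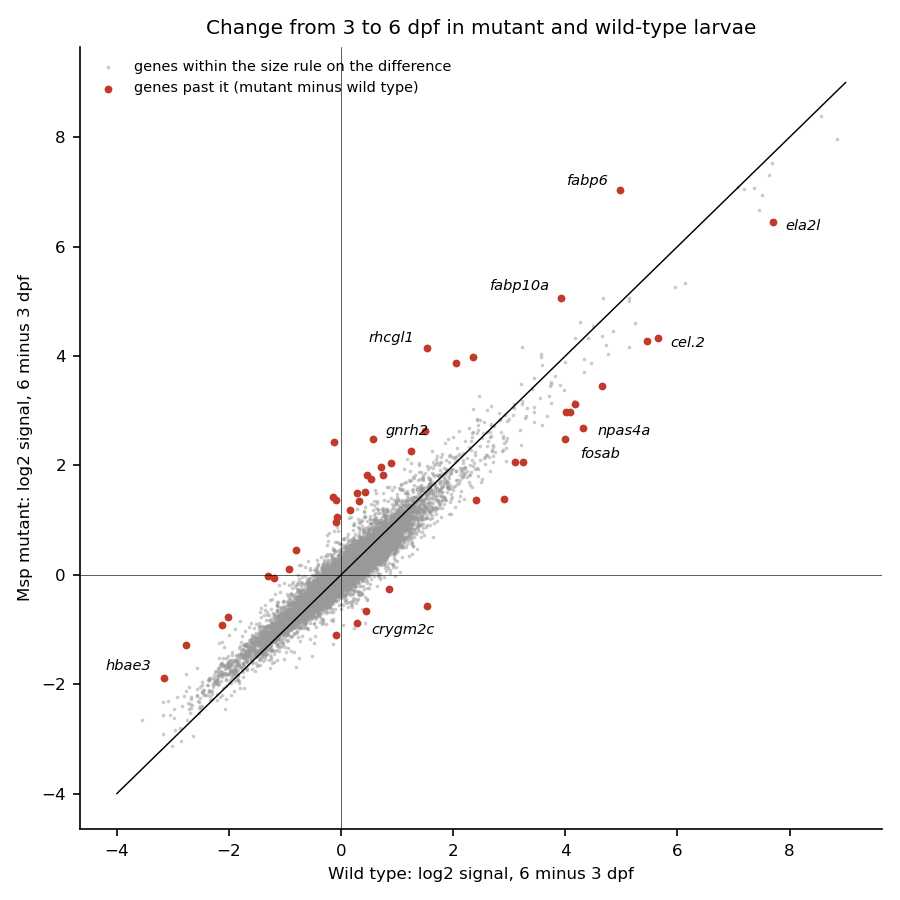
Log2 difference between 6 and 3 dpf of every measured gene in wild type (x axis) and in the Msp mutant (y axis), with the line of equality. Red points are the 48 genes whose mutant and wild-type differences are at least 1 apart by the size rule, and fabp6 and rhcgl1 lie farthest above the line among the named genes.

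Exocrine pancreas, which secretes digestive enzymes, gave the largest gains. Log2 signal of the chymotrypsin-like gene ctrl was 6.47 and 6.71 on the 3 dpf arrays and 14.88 and 15.06 on the 6 dpf arrays. No other well-measured gene with a symbol differed as much: its fold was 333 (log2 8.38 ± 0.03), and limma called it (adjusted p = 9.54e-07). The elastase gene ela3l went from 6.72 and 6.76 to 14.63 and 14.78, a 251-fold difference. The trypsin gene prss1 went from 8.98 and 8.93 to 16.05 and 15.96 (132-fold). Stages did not overlap for any of these 3 genes, but they were chosen for their size, so this adds no evidence. The elastases cela1.6 (7.52 ± 0.25) and ela2 (6.68 ± 0.24) and chymotrypsinogen ctrb.1 (7.07 ± 0.09) were close behind. Some enzymes were not well above background in the mutant at 3 dpf, so that only a lower bound holds: ctrb.2 was at least 124-fold higher, the astacin protease gene c6ast4 at least 38.2-fold, the amylase gene amy2a at least 19.3-fold and ctrb.3 at least 18.4-fold. Of the 38 listed pancreas genes 29 passed the filter on dim probes, and 17 of these were not well above background in all 4 pools. Of the 29, 24 were higher, 0 were lower and 24 rose by limma. All 12 that were well above background in every pool were among the higher ones. The list's median was 4.20 ± 0.01, against -0.00273 over all genes. It was 2.78 when the probes of each gene were averaged and 6.57 over the 12 genes measured in every pool. The pancreatic transcription factor gene ptf1a stood apart at -0.41 ± 0.09. Trypsin, chymotrypsin and elastase genes have close copies, and the probes may share signal between them.

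The difference between stages was lower in the mutant than in wild type for 29 of 29 pancreas genes, while over all genes it was higher in the mutant for 48.4%. Genes with large differences leaned the same way: of all genes called higher in both genotypes, 285 of 781 had the larger difference in the mutant. With Agilent's processed signals it was higher in the mutant for 8 of the 29, and with an offset of 10 or without the second 3 dpf array for 3. The median in wild type was 4.85 ± 0.28, and the median of the gene-by-gene differences was -0.55 ± 0.01. The elastase gene ela2l passed the size rule on that difference (6.46 in the mutant and 7.70 in wild type). The bile salt activated lipase gene cel.2, the amylase genes amy2a and amy2al2, c6ast3 and zgc:92590 also passed it, but in neither genotype did both 3 dpf arrays show their probes well above background, so the sizes of their gaps are not given. At 6 dpf ela2l stood at 14.71 and 14.95 in the mutant against a mean of 15.86 in wild type, while at 3 dpf the mutant means were 8.37 and wild type 8.16. The list's median difference between genotypes lay between -0.62 and -0.36 over the settings of background, scaling, probe summary, filter, arrays and dye pairs that were tried. Insulin (ins, 1.12 ± 0.23) and the neuropeptide gene vip (1.14 ± 0.08) were higher among 19 endocrine pancreas and gut hormone genes. In that list agr2, a protein disulfide isomerase of secretory cells, was the 1 lower gene (-2.30 ± 0.22). That share of 5.26% was close to the 4.68% over all genes.

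**Figure D2:**
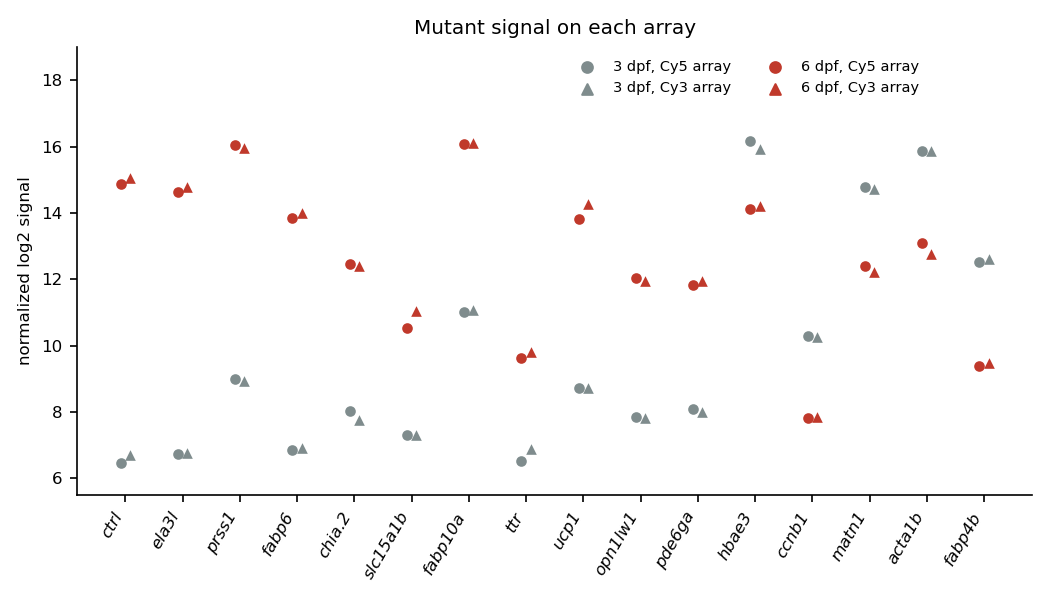
Normalized log2 signal of 16 genes in the mutant on each of its 4 arrays (y axis), with 3 dpf in grey, 6 dpf in red, circles for Cy5 and triangles for Cy3. For each gene the values of the 2 stages do not overlap, and the dye-swapped arrays of a stage lie close together. The genes shown had passed the size rule, which made such a gap likely, and the arrays of a stage are not counted as replicates.

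Calls among genes of absorptive gut cells were all on the higher side. The ileal bile acid binding protein gene fabp6 stood at 6.85 and 6.92 at 3 dpf and at 13.85 and 14.01 at 6 dpf. It ranked among the 10 highest genes with a symbol in the mutant, with a 132-fold difference (7.04 ± 0.06). The acidic chitinase gene chia.2 was 23.3-fold higher, and the peptide transporter gene slc15a1b went from 7.31 and 7.31 to 10.51 and 11.05 (3.47 ± 0.37). The stages did not overlap for slc15a1b, which the size rule made likely, and the meprin gene mep1a.1 stood at 2.65 ± 0.31. Of 40 measured genes 16 were higher and 0 lower, 13 rose by limma, and the median was 0.85 ± 0.06, or 0.74 to 1.43 over the settings tried. The lowest members were alpi.1, an intestinal alkaline phosphatase (-0.70 ± 0.11), and apoa4a (-0.56 ± 0.15). The bile acid uptake transporter gene slc10a2, which handles the same substrate as fabp6, differed by 1.35 ± 0.00 in the mutant and 0.59 in wild type. The intestinal and hepatic drug-metabolizing gene cyp3a65 went from 6.96 and 7.12 to 11.97 and 12.23, a 33.5-fold difference.

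Calls among liver plasma protein genes were on the higher side too. Fatty acid binding protein 10a (fabp10a), the abundant lipid carrier of hepatocytes, is counted in the lipid transport list instead. It stood at 11.01 and 11.08 at 3 dpf and at 16.08 and 16.11 at 6 dpf. That 33.2-fold difference exceeded the one in wild type, where the means were 11.66 and 15.59, by 1.13 ± 0.08. Transthyretin (ttr), a thyroid hormone carrier, was 8.06-fold higher, and fetub was 4.89-fold higher. Of 42 genes for plasma proteins, complement and coagulation 23 were higher and 0 lower, 20 rose by limma, and the median was 1.07 ± 0.13, or 0.84 to 1.63 over the settings. Among 26 lipoprotein and lipid transport genes the directions were mixed, with 8 higher and 5 lower. Those were 30.8% and 19.2%, beside 4.86% and 4.68% over all genes. The apolipoprotein gene apoa2 (2.41 ± 0.19) and lipoprotein lipase lpla (2.27 ± 0.15) were on the higher side. On the lower side fabp4b, an adipocyte-type fatty acid binding protein, went from 12.51 and 12.62 to 9.38 and 9.47. It was the lowest gene with a symbol in the mutant that was well measured at both stages (-3.14 ± 0.01).

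Most sterol and fatty acid synthesis genes, taken as 1 list, had a more positive difference between stages in the mutant than in wild type. Of 32 measured genes 2 were higher and 3 lower in the mutant by the size rule (6.25% and 9.38%, beside 4.86% and 4.68% over all genes). The lower ones were mvda (-1.22 ± 0.12), idi1 (-1.11 ± 0.04) and hmgcs1 (-1.10 ± 0.04), all enzymes of the mevalonate pathway. Hmgcs1 stood at 10.77 and 10.84 at 3 dpf and at 9.71 and 9.72 at 6 dpf, while wild type went from 11.58 to 9.58. The median was -0.17 in the mutant and -0.21 in each of its dye pairs, against -0.59 in wild type. Over the settings the mutant median was -0.34 to -0.16. In 26 of 32 genes the difference was more positive in the mutant, beside 48.4% over all genes. Of all genes called lower in both genotypes, 143 of 839 had the larger decline in the mutant. Limma, which pools both genotypes, found that 8 fell and 1 rose. The 2 higher members were the low density lipoprotein receptor gene ldlra (1.22 ± 0.16) and cyp7a1, which starts bile acid synthesis from cholesterol (1.03 ± 0.06 against 0.14 in wild type). None of the 32 passed the size rule on the difference between genotypes (0 above and 0 below).

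**Figure D3:**
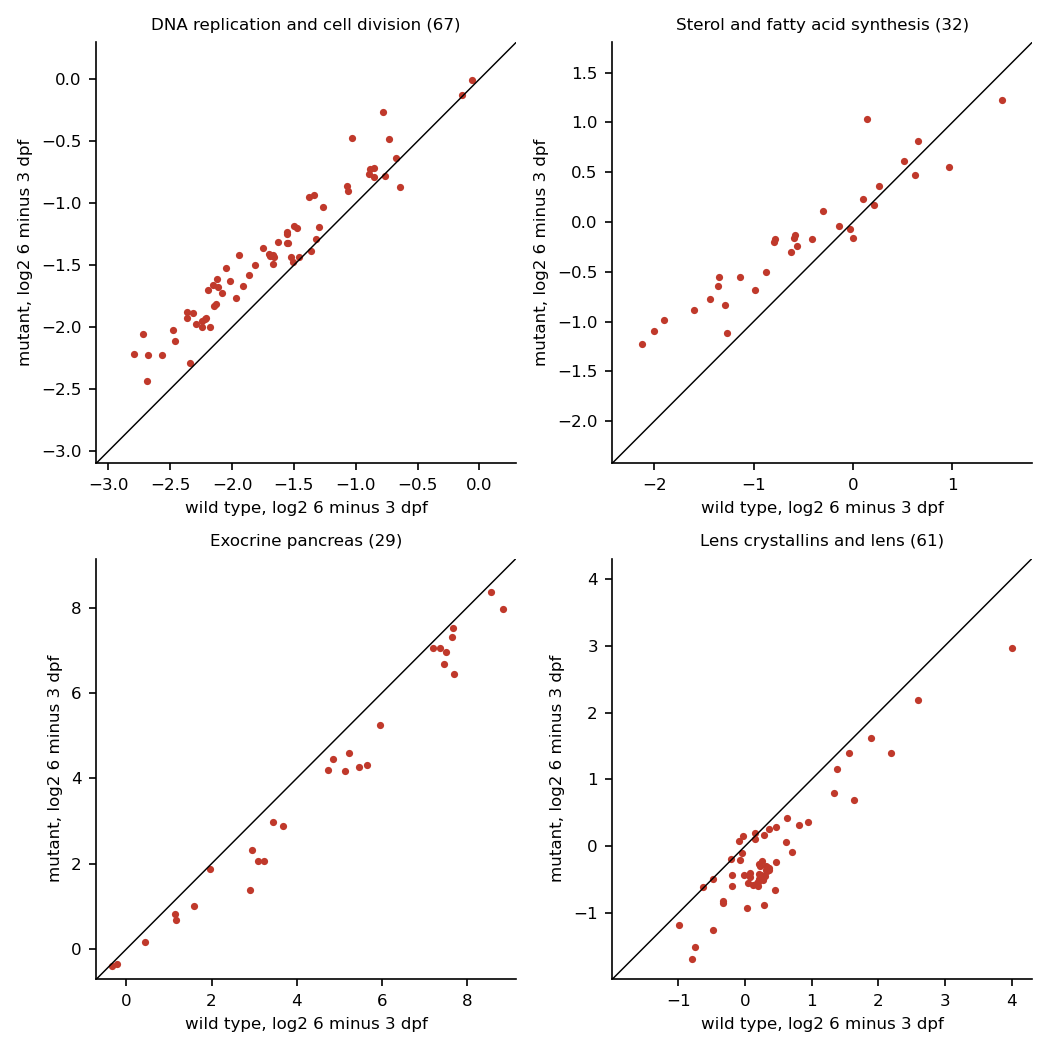
Log2 difference between 6 and 3 dpf in wild type (x axis) and in the mutant (y axis) for 4 gene lists, 1 point per gene, with the line of equality. Points of DNA replication and of sterol and fatty acid synthesis lie mostly above the line (64 of 67 and 26 of 32 genes). Those of exocrine pancreas and lens lie mostly below it (29 of 29 and 56 of 61).

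In the eye, nearly all calls among photoreceptor genes were on the higher side. The red cone opsin gene opn1lw1 stood at 7.84 and 7.82 at 3 dpf and at 12.05 and 11.95 at 6 dpf, a difference of 4.17 ± 0.06 in the mutant. Wild type went from 7.53 to 10.76, so the mutant exceeded it by 0.94 ± 0.03. The green cone opsin gene opn1mw2 (2.64 ± 0.20, against 1.49 in wild type) passed the size rule on that difference. The phosphodiesterase subunit gene pde6ga was 14.3-fold higher, rbp3, a retinoid carrier, stood at 2.86 ± 0.23, and clul1, a retinal clusterin relative, was at least 20.2-fold higher. Of 57 genes 18 were higher and 1 lower, with 15 that rose and 2 that fell by limma and a median of 0.63 ± 0.01. The lower one was rpe65a, the retinoid isomerase gene of the pigment epithelium, at -1.49 ± 0.02.

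Lens genes went in different directions in the mutant. The gamma crystallin gene crygm1 was 7.84-fold higher and crygn1 stood at 2.19 ± 0.05, whereas crygm2d13 (-1.69 ± 0.09) and crygm2d6 (-1.52 ± 0.06) were lower. Over 61 lens genes 6 were higher and 4 lower (9.84% and 6.56%, beside 4.86% and 4.68% over all genes), and 8 rose and 3 fell by limma. The median was -0.34 ± 0.06 (-0.47 to -0.20 over the settings), while the wild-type median was 0.25 ± 0.08. In 56 of the 61 the mutant had the lower difference, with a median of -0.55 ± 0.06 that ranged from -0.64 to -0.43 over the settings. Crygm2c went from 10.40 and 10.47 to 9.47 and 9.64 in the mutant and from 10.24 to 10.53 in wild type. The gamma M2 crystallins are a large family of near-identical genes. Their probes may read the same transcripts and are not independent.

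**Figure D4:**
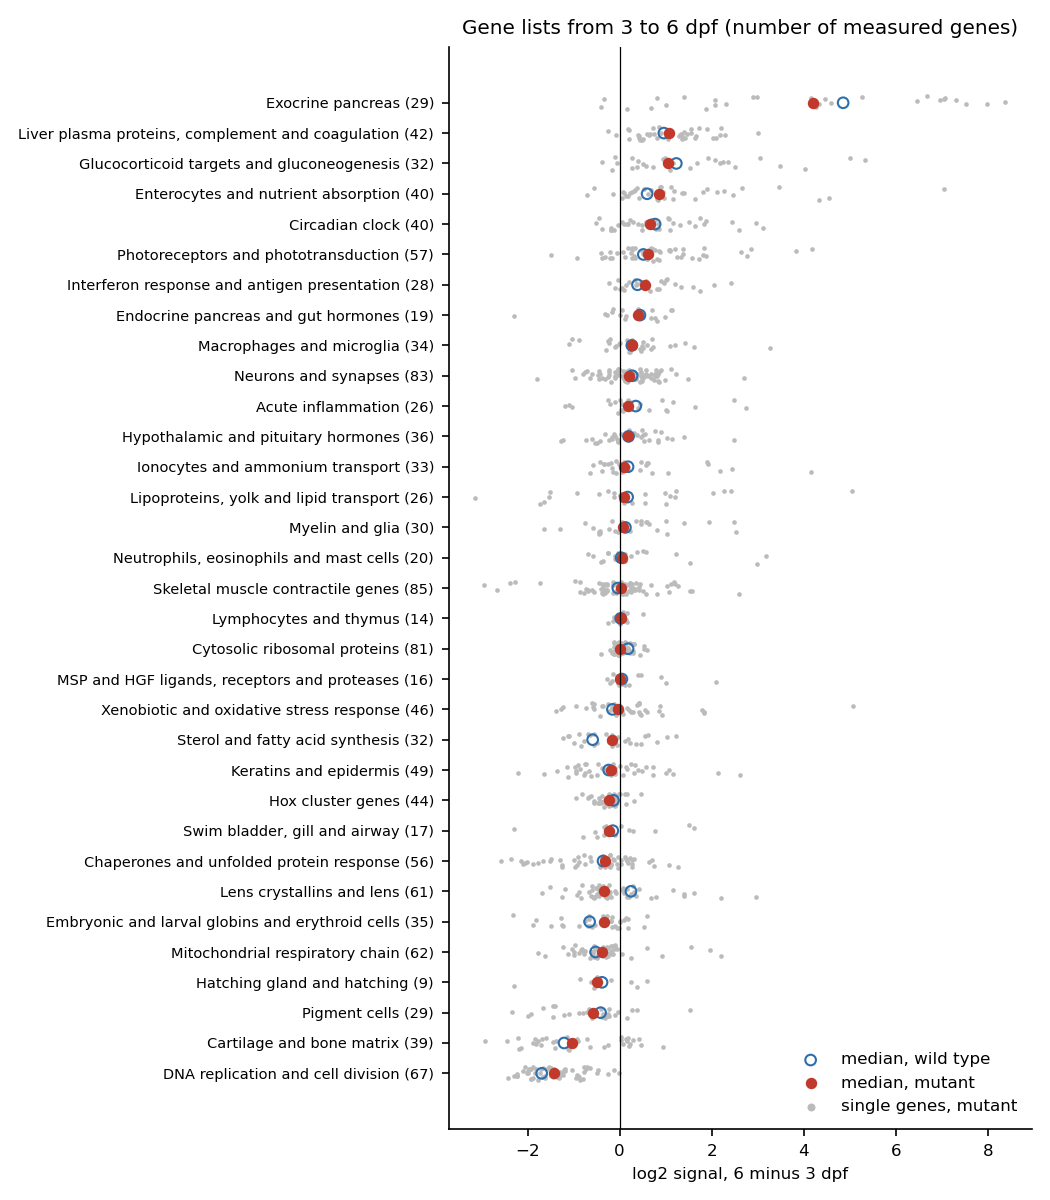
Log2 difference between 6 and 3 dpf for 33 gene lists, ordered by their mutant median. Grey points are single genes in the mutant, filled red circles the mutant medians and open blue circles the wild-type medians. The exocrine pancreas stands highest at 4.20, and DNA replication and cell division lowest at -1.43.

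Cell division genes were lower at 6 dpf. Cyclin B1 (ccnb1), which drives entry into mitosis, stood at 10.28 and 10.27 at 3 dpf and at 7.83 and 7.86 at 6 dpf, a 5.40-fold lower signal at 6 dpf (limma adjusted p = 3.03e-05). The dUTPase gene dut went from 10.34 and 10.55 to 8.04 and 8.27. The replicative helicase genes mcm6 (-2.23 ± 0.02) and mcm5 (-2.22 ± 0.13) and the ribonucleotide reductase genes rrm1 (-2.22 ± 0.23) and rrm2l (-2.62 ± 0.17) were alike in size. The stages did not overlap for ccnb1 or dut, which the size rule made likely. The nuclear import gene kpna2 was also among the 10 lowest genes with a symbol in the mutant (-2.56 ± 0.19). The mitotic kinesin gene kif20a was not well above background at 6 dpf and was at least 2.28-fold lower. Of 67 genes 51 were lower, 0 were higher and 53 fell by limma. The list's median was -1.43 ± 0.04, and all 67 members had a negative difference, birc5b the smallest. The wild-type median was -1.69 ± 0.06. In 64 of 67 genes the mutant had the smaller decline, by a median of 0.28 ± 0.01, which lay between 0.24 and 0.37 over the settings. Of these genes 0 passed the size rule on the difference. A smaller decline was common beyond this list: of all genes called lower in both genotypes, 143 of 839 had the larger one in the mutant.

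Most calls among chaperone genes and all calls among cartilage and bone matrix genes were on the lower side. The calreticulin gene calr3b went from 12.37 and 12.51 to 9.82 and 9.92, and manf, a secreted factor of the unfolded protein response, was 5.15-fold lower. The main lumenal chaperone gene hspa5 stood at -2.01 ± 0.18. Among 56 chaperone genes 14 were lower and 2 higher, 17 fell and 2 rose. The shares were 25.0% lower and 3.57% higher, beside 4.68% and 4.86% over all genes. The higher share was thus no more than that over all genes. The higher ones were hspb15 (1.26 ± 0.05) and ddit3 (1.06 ± 0.07), and the cytosolic hsp70l (0.64 ± 0.07) did not pass the size rule. In cartilage, hapln1a, which links hyaluronan to proteoglycan, went from 11.13 and 11.05 to 8.15 and 8.20, and matn1 was 5.43-fold lower. The collagen genes col9a3 (-2.20 ± 0.03) and col11a2 (-2.18 ± 0.10) were next in size. Of 39 cartilage and bone genes 21 were lower and 0 higher, 22 fell by limma, 1 rose, and the median was -1.04 (-0.99 and -0.96 in the single dye pairs). The bone protein gene bglap was the highest member (0.95 ± 0.05). The further endoplasmic reticulum gene rcn3 (-2.80 ± 0.01) was among the 10 lowest genes with a symbol. A peroxidase gene of that compartment, gpx7, was at least 5.32-fold lower.

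Muscle genes were called in both directions, 10.6% of them higher and 5.88% lower, beside 4.86% and 4.68% over all genes. The calcium pump gene atp2a1l was 6.05-fold higher, at 13.82 and 13.77 and then 16.47 and 16.31. The actin gene acta1b was 7.69-fold lower, from 15.87 and 15.86 to 13.09 and 12.75, and casq2, a calcium buffer of the sarcoplasmic reticulum, was 6.32-fold lower. Casq2 declined less than in wild type (-2.66 against -3.56), and the troponin gene tnnt3a (-2.28 ± 0.01) resembled it in size. Of 85 contractile genes 9 were higher and 5 lower, 6 rose and 6 fell, and the median was 0.03, with a range from -0.13 to 0.09 over the settings.

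Calls among globin and erythroid genes were all on the lower side. The alpha globin gene hbae3 stood at 16.18 and 15.93 at 3 dpf and at 14.12 and 14.22 at 6 dpf, a 3.69-fold lower signal, and hbbe3 was 4.96-fold lower. Of 35 globin and erythroid genes 7 were lower and 0 higher, and 7 fell. The median was -0.34 ± 0.05, or -0.73 to -0.27 over the settings, against -0.65 ± 0.07 in wild type. For hbae3 the wild-type difference was -3.17, so the mutant declined less by 1.28 ± 0.40. The globin ba1l also passed the size rule on that difference, but in the mutant it was well above background on only 1 array at 3 dpf and 0 at 6 dpf. Globin genes are close copies too.

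Of the immune lists, the share of genes higher at 6 dpf was 25.0% for interferon and antigen presentation, 23.1% for acute inflammation, 14.7% for macrophages and microglia and 0 for lymphocytes, beside 4.86% over all genes. In the list of neutrophils, eosinophils and mast cells 4 of 20 were higher. Among 34 macrophage and microglia genes 5 were higher and 2 lower, with the granulin genes grna.2 (3.26 ± 0.18) and grna.1 (1.61 ± 0.08) and the antigen presentation gene cd74a at least 2.68-fold higher. Of the 25 that were well above background in all 4 pools, 2 were higher and 1 lower. The macrophage gene mpeg1.1 (0.27 ± 0.20) and the receptor gene csf1ra (-0.25 ± 0.07) did not pass. The 4 higher genes among neutrophil, eosinophil and mast cell genes, with 0 lower, were led by arg2 (3.18 ± 0.01) and cpa5 (2.99 ± 0.08), which is also in the pancreas list. The neutrophil genes mpx (-0.58 ± 0.08) and lyz (-0.69 ± 0.17) were not called. Of 14 lymphocyte and thymus genes 0 were called in either direction. Among 28 interferon and antigen presentation genes 7 were higher and 0 lower, and 7 rose. The cytokine signalling inhibitor gene socs1a was 5.31-fold higher, and irf1b stood at 2.04 ± 0.15 against 0.89 in wild type. Among 26 acute inflammation genes 6 were higher and 3 lower, led by socs3a (2.74 ± 0.00) and fosab. Caspb, an inflammatory caspase gene, was 6.32-fold lower (-2.66 ± 0.14), in the mutant from 12.49 and 12.69 to 9.93 and 9.93, and ccl34a.4, a chemokine gene, was at least 2.15-fold lower.

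Some genes of the list of glucocorticoid targets and gluconeogenesis were among the highest of the mutant outside the gut. The mitochondrial uncoupling protein gene ucp1 went from 8.73 and 8.71 to 13.82 and 14.27, a 40.1-fold difference. The insulin-like growth factor binding protein gene igfbp1b was 31.9-fold higher and tat, which degrades tyrosine, 11.2-fold. The gluconeogenic genes g6pc1a.2 (2.24 ± 0.14) and pck1 (2.07 ± 0.08) and the glucocorticoid target klf9 (2.51 ± 0.08) were also higher. Of 32 genes 18 were higher and 0 lower, and 19 rose. The median was 1.06 ± 0.07 in the mutant and 1.23 ± 0.03 in wild type. Whether the larvae were fed is not stated, and its part in these values was not tested. The receptor gene nr3c1 itself stood at 0.50 ± 0.05.

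All calls among circadian clock genes were on the higher side. The nuclear receptor gene nr1d1 was 8.71-fold higher and per1b 7.82-fold, at 9.07 and 8.80 and then 11.97 and 11.83. The basic helix-loop-helix repressor gene bhlhe40 (2.59 ± 0.19) was next. Of 40 genes 14 were higher and 0 lower, 12 rose, and the median was 0.67 ± 0.11 in the mutant and 0.77 ± 0.03 in wild type. The activator genes bmal1a (-0.18 ± 0.17) and bmal1b (0.17 ± 0.07) did not pass the size rule. The difference between the genotypes had a median of 0.01 ± 0.01. The hour of collection at each stage is not given, and its part in these values was not tested.

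In the nervous system the calcium buffer gene pvalb7 was 6.55-fold higher and the embryonic tubulin gene tuba1a 3.48-fold lower. The growth cone gene gap43 was also lower (-1.04 ± 0.20). Of 83 neuronal genes 4 were higher and 2 lower (4.82% and 2.41%), no more than the 4.86% and 4.68% over all genes. Myelin genes plp1b and mpz were 5.72-fold and 5.62-fold higher, and of 30 myelin and glial genes 5 were higher and 2 lower (16.7% and 6.67%). Of 36 hypothalamic and pituitary genes 4 were higher and 2 lower. The higher share was above the 4.86% over all genes, while the lower share (5.56%) was close to the 4.68%. Of the 28 that were well above background in all 4 pools, 4 were higher and 0 lower. Gnrh2, the gonadotropin-releasing hormone gene of midbrain neurons, was 5.56-fold higher and npy, an appetite peptide gene, 2.64-fold. The somatolactin gene smtlb was at least 2.33-fold lower, and cyp17a1, a steroid synthesis enzyme, at least 2.42-fold.

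At the body surface, most calls among pigment cell genes were on the lower side, with gch2, an enzyme of pteridine synthesis in yellow pigment cells, 5.03-fold lower, and the purine gene pnp4a of iridophores 3.79-fold lower. Its paralogue pnp4b was the higher one, at least 2.88-fold. Of 29 pigment genes 9 were lower and 1 higher (31.0% and 3.45%, beside 4.68% and 4.86% over all genes), and 9 fell. The keratin genes krt97 (2.61 ± 0.10) and krt15 (2.15 ± 0.05) were higher, while the fin fold actinodin gene and1 was 4.59-fold lower. Over 49 keratin and epidermal genes 4 were higher and 5 lower, 3 rose and 9 fell. Ionocyte genes gave 6 higher (18.2%) and 0 lower of 33. The Rhesus ammonium channel genes rhcgl1, at least 17.7-fold higher, and rhcga, 5.42-fold higher, led that list.

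Ribosomal protein and Hox genes gave no call in either direction, with 0 of 81 and 0 of 44. Limma called 0 of them too, with the unadjusted p under 0.05 for 21 ribosomal and 22 Hox genes whose differences were under 1. Their medians in the mutant were 0.02 ± 0.08 and -0.24 ± 0.07. A one-sided lean against wild type was also seen here. The difference between stages was more positive in the mutant for 8 of 81 ribosomal, 9 of 44 Hox and 54 of 62 respiratory chain genes. The median gaps (-0.14, -0.10 and 0.11) were smaller than for pancreas, lens, DNA replication or sterol synthesis. Without the first 3 dpf array the ribosomal count was 37. Of 62 respiratory chain genes 3 were higher and 6 lower (4.84% and 9.68%), beside 4.86% and 4.68% over all genes. The muscle and heart forms cox6a2 (2.21 ± 0.17) and cox7a1 (1.96 ± 0.14) were on the higher side, and atp5mc1, a subunit of the ATP synthase ring, was 3.42-fold lower. Of 46 xenobiotic and oxidative stress genes 4 were higher (8.70%) and 3 lower (6.52%), among them gstm.3 (-1.38 ± 0.01). Of 17 swim bladder, gill and airway genes 2 were higher (11.8%), the smooth muscle genes tagln (1.61 ± 0.07) and acta2, and 1 was lower (5.88%). Of 9 hatching genes 1 was lower, agr2, which is in this list as well.

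A small set of genes moved differently in mutant and wild type. In 30 genes the mutant difference lay above that of wild type by the size rule (0.159%) and in 18 below it (0.0954%). With Agilent's processed signals these numbers were 168 and 121. This difference equals the change of the within-array ratio from 3 to 6 dpf, leaves no degree of freedom for a test, and rests on both stages. In the mutant, 21 of the 30 genes were called higher at 6 than at 3 dpf and 2 lower. Of the 18 below, 13 were called higher and 1 lower. Over all genes the shares were 4.86% and 4.68%. The genes were chosen by a value that holds the mutant difference, so these counts add no evidence.

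Some of these genes parted at 6 dpf. Rhcgl1 stood at 6.28 and 6.30 in the mutant at 3 dpf and at 10.42 and 10.46 at 6 dpf, while wild type reached only 7.60. Neither genotype was well above background at 3 dpf, and over the settings the gap between their differences ranged from 1.61 to 2.73. Gnrh2 went from 7.23 and 7.46 to 9.73 and 9.92 in the mutant and from 7.38 to 7.95 in wild type (gap 1.90 ± 0.20). Pomca, the precursor of adrenocorticotropic hormone, stayed at 8.05 and 8.17 and then 8.03 and 8.14 in the mutant, whereas wild type went from 8.23 to 6.92 (gap 1.11 to 2.27 over the settings). The stages overlapped for pomca in the mutant, unlike rhcgl1 and gnrh2. The serum amyloid P gene apcs (1.43 ± 0.22 against -0.15) and the interferon-induced ifi27.1 (0.46 ± 0.12 against -0.80) had opposite signs in the genotypes, though 1 wild-type dye pair of apcs lay close to 0. The aryl hydrocarbon receptor repressor gene ahrra stood at 6.92 and 6.29 and then 8.42 and 8.43, and at 3 dpf only 1 of its 2 arrays was well above background. Its gap ranged from 0.81 to 4.13 over the settings. Cyp1a, a target of that receptor, was higher as well (1.79 ± 0.02 against 1.28). The protein disulfide isomerase gene agr1 declined less than in wild type (-0.91 ± 0.04 against -2.13). Part of its gap was already there at 3 dpf, with mutant and wild-type means of 10.24 and 10.75, then 9.33 and 8.63 at 6 dpf.

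Other genes had parted already at 3 dpf. Fabp6 had mutant means of 6.88 at 3 dpf and 13.93 at 6 dpf, against 8.40 and 13.38 in wild type. Its gap was 2.06 ± 0.14, or 1.37 to 3.06 over the settings, with the mutant the dimmer genotype at 3 dpf and the brighter at 6 dpf. Cox7a1 stood at 8.30 and 8.22 and then 10.16 and 10.29 in the mutant, against 10.39 and 11.09 in wild type. The activity-induced transcription factor genes npas4a, fosab and egr4 were already brighter in the mutant at 3 dpf. Fosab stood at 9.54 and 9.51 and then 12.08 and 11.94 in the mutant, and wild type went from 8.24 to 12.24. Npas4a differed by 2.68 ± 0.09 in the mutant and 4.32 ± 0.19 in wild type, and egr4 by 2.98 ± 0.13 and 4.09 ± 0.01. When the probes of each gene were averaged the gap fell short of the size rule for npas4a (-0.84), fosab (-0.76) and cbx7a (-0.52), while Agilent's processed signals gave -2.42, -1.75 and -1.46. The Polycomb gene cbx7a had the same form, at 8.59 and 8.55 and then 11.72 and 11.69 against 7.47 and 11.64. In all 4 of these genes the mutant and wild type were within 0.5 of each other at 6 dpf.

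**Figure D5:**
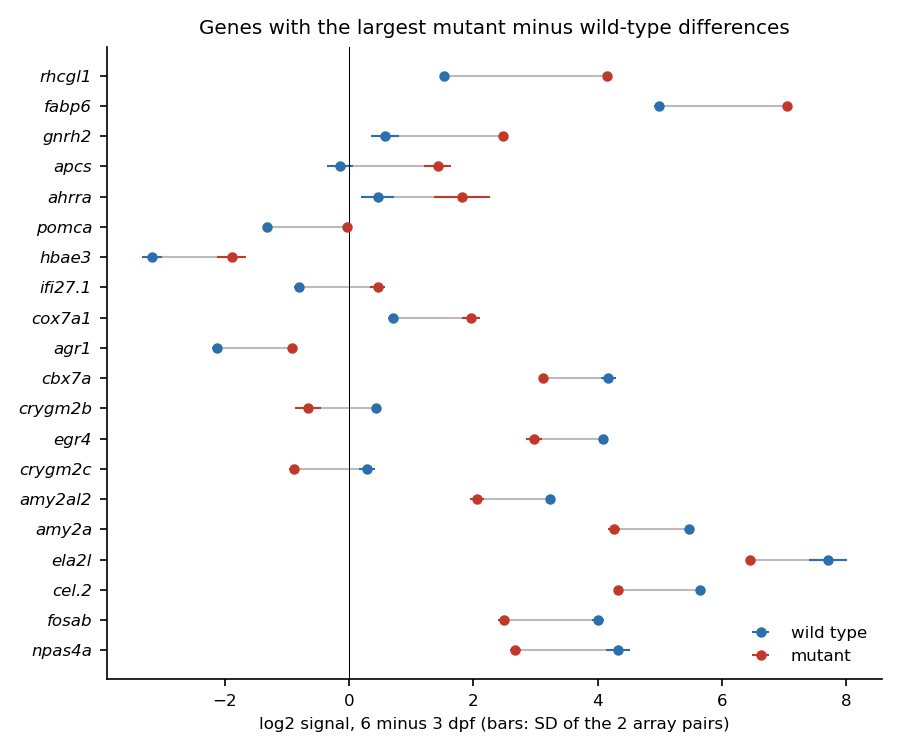
Log2 difference between 6 and 3 dpf in mutant (red) and wild type (blue) for the 20 named genes whose differences lie farthest apart. Bars are the SD of the 2 dye pairs, hidden where smaller than the point. Rhcgl1, fabp6 and gnrh2 are farthest above wild type, and npas4a, fosab and cel.2 farthest below it. At 3 dpf the probes of rhcgl1, cel.2, amy2a and amy2al2 were in neither genotype well above background on both arrays. That of ahrra was so in wild type only.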

How the data were processed

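The deposited scanner files give linear intensity per spot in both colours, as a median with its local background and as Agilent's processed signal, from Feature Extraction 10.5.1.1 per the file headers (8.5.1.1 per the submitters' processing notes). In the deposited series table the authors give log2 ratios of mutant over wild type. Its column for array 2 of 6 dpf is the mean of both 6 dpf arrays, and the deposited column for array 1 of 3 dpf, a score unrelated to that array, was not used. Scale, centring and direction are unstated and were read from the scanner files.

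Controls and outlier spots were left out. Of the probes, 59.6% to 69.2% in green and 73.5% to 74.8% in red were well above background. Background was corrected with normexp (offset 50), channels were normalized by loess within and Aquantile between arrays (limma 3.58.1, R 4.3.3), and spots of a probe were averaged. Tables and figures were made in Python 3.11.15. A gene is its brightest probe, named through RefSeq tables, and 18877 of 26620 genes were kept, since some pool showed the probe well above background on each of its arrays. The dye-swapped arrays of a stage were taken to share 1 pool per genotype, which the labels leave unstated, and counted as 1 replicate. Lower bounds on folds set the bright pool against a floor per array (the dimmest probe that is well above background there, or the probe's own signal where higher) and rest on balanced dye swaps.

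Members and the 33 gene lists were chosen with earlier results of these data known, and lists have no test. Rankings across all genes took only genes with a symbol, and left out clone and locus names. Named genes were the 10 highest and 10 lowest mutant differences measured at both stages, the 6 highest and 6 lowest lower bounds, the 10 highest and 10 lowest differences between genotypes past the size rule, the members of each list in order of size, and mst1. Where members lower in that order are given, such as marker or receptor genes that did not pass the size rule, they were chosen after their values were seen. Scripts were tested on simulated data. Alternatives were the background method, offset, scaling, probe summary, filter, thresholds, single arrays, single dye pairs and the series table.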

Additional observations from a re-analysis of the deposited data

Results flagged for a closer look

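Only the named genes with the largest differences between genotypes past the size rule were searched for opposite directions. In 4 of them every dye pair of the mutant moved one way from 3 to 6 dpf. Every pair of wild type moved the other way. How many of the remaining genes did so was not counted, and choosing genes by a large gap favours opposite signs. The difference between genotypes was not tested. The mutant minus wild-type difference was 1.58 for apcs and 1.26 for ifi27.1, whose differences were positive in the mutant and negative in wild type, with 1 wild-type pair of apcs close to 0. It was -1.17 for crygm2c and -1.10 for crygm2b, whose differences were negative in the mutant and positive in wild type. Of these single-genotype differences only that of apcs in the mutant passed the size rule. Over all settings apcs ranged from 1.28 to 3.17, ifi27.1 from 1.17 to 1.56, crygm2c from -1.30 to -1.04 and crygm2b from -1.27 to -0.98. None of the 4 had a further detected probe, with 0 each.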

How the results depend on the processing

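No paired analysis was possible because the labels give no replicate numbers shared between the stages and each array held 1 stage. Mutant and wild type of a stage shared their arrays, and the difference between genotypes is already taken within arrays. No reported mutant call took the opposite sign under any setting (0 of 1800). For the single dye pairs this was fixed in advance, since the size rule asks for the same sign in each. Changed thresholds and filters leave the differences as they were. Where all 4 pools had to be well above background, 1583 of the 1800 were measured. The counts moved by over 1.5 times as follows. Agilent's processed signals gave 1889 genes higher and 1979 lower in the mutant, 168 above and 121 below wild type, and 2111 and 2148 genes for stage. A threshold of log2 2 left 185 higher and 74 lower genes, 78 and 28 of them list members. With channels only centred, 1502 genes were lower in the mutant and 1588 fell over both genotypes. For the difference between genotypes the deposited ratios of the authors gave 298 genes above and 166 below. With 1 column unused and 1 a mean of arrays, these ratios do not give both dye pairs. Their counts could therefore not follow the size rule in each pair, and are not directly comparable with the main counts. For the same difference an offset of 10 gave 62 above and 37 below, and a threshold of 0.58 gave 159 and 156. The Cy5 pair alone gave 40 below, and genes well above background in all 4 pools 10 below. That last filter left 20 of 32 named extremes, since the lower bounds drop out. The slope of 0.908 moved by more than its SD to 0.931 with Agilent's processed signals and to 0.919 in the Cy3 pair alone. The median of the hatching list turned from -0.50 to 0.24 under that filter, and that of myelin from 0.08 to -0.12 with centring. Without 1 array at a time, mutant counts ranged from 906 to 964 higher and 891 to 928 lower, list members from 185 to 199 and 142 to 146, genes above wild type from 35 to 41 and below from 25 to 40, named extremes from 31 to 32, slopes from 0.906 to 0.916, and stage counts from 953 to 967 and 1011 to 1045. The cause was not tested. The faint signal of many probes and 1 pool per group limit what can be seen.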
